A study of Mus musculus with 8 samples.

Results

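The subject is 7 genes that mark subplate neurons, *Nr4a2*, *Cplx3*, *Nxph4*, *Lpar1*, *Moxd1*, *Tmem163* and *Hs3st4*, in RNA-seq of the mouse cortex at postnatal day 1 (P1). They were chosen by name as known markers, were found by symbol among the 48709 listed genes, and all 7 were among the 16287 genes that passed the filter on low counts. The study asked how loss of the BAF chromatin remodeling complex alters the cortical gene expression program and neuron positioning. There were 4 control and 4 dcKO_Nex-Cre libraries, 1 per sample, all of postnatal cortex. The dcKO_Nex-Cre mutants carried floxed BAF155 (*Smarcc1*) and floxed BAF170 (*Smarcc2*), deleted by Nex-Cre, and the controls were heterozygous for both floxed genes (BAF155fl/+, BAF170fl/+) and Cre negative, all on a C57BL6/J background. The labels name the groups only as control and mutant (dcKO), and the Cre line and the control genotype were taken from the study's methods. Nex-Cre is active in newborn and postmitotic cortical projection neurons, so that interneurons, glia and vessels of the same tissue keep both genes, and only the mutant group carries the Cre allele. Nothing in the labels says that the libraries of a group came from separate animals, and p-values then measure only the spread between these samples, which may be technical.

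Subplate neurons are among the first neurons born in the cortex and lie beneath the cortical plate. They send early axons out of the cortex, receive the first thalamic input before layer 4 does, and take part in the radial migration of later-born neurons. Many are lost after birth in rodents, and the survivors form layer 6b. Several of the 7 genes are found in other cells too. *Nr4a2* also marks the claustrum, *Lpar1* is found in the oligodendrocyte lineage, and *Hs3st4* is found in layer 6. RNA came from whole tissue, in which fewer subplate cells and less RNA per cell cannot be told apart. Nor can it be told which cells hold the RNA of a member, *Cplx3* included.

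Total counts per library ranged from 17958641 to 35191912. Levels are given as CPM, that is, counts scaled to a common library size by edgeR's TMM method, and errors of means are SDs between the 4 libraries. Fold changes are log2 values of dcKO_Nex-Cre over control from edgeR's quasi-likelihood test, with the standard error, the 95% interval and the p-value adjusted by Benjamini-Hochberg over all tested genes. Both deleted genes fell. *Smarcc2* ranged from 428.5 to 486.4 CPM in the control and from 241.0 to 292.1 CPM in the dcKO_Nex-Cre cortex (log2 fold change -0.81 ± 0.09, SE, adjusted p = 0.00267), and *Smarcc1*, which shares exon bases with *Dhx30* on the other strand, from 138.6 to 164.4 CPM and from 93.0 to 122.1 CPM (-0.53 ± 0.10, adjusted p = 0.0348). The call of *Smarcc2* held in 15 of 16 alternative fits and that of *Smarcc1* in 7. *Neurod6*, whose locus carries the Nex-Cre allele, fell by 0.74 on the log2 scale (adjusted p = 0.0192, past the threshold in 10 of 16 alternatives). Some libraries stood apart in markers of other tissues. The 6 choroid plexus markers summed to 739.7 CPM in control library 1, 1336 CPM in control library 4 and 557.4 CPM in dcKO_Nex-Cre library 2, against 4.10 to 94.3 CPM in the other 5. The 8 striatal markers summed to 309.9 CPM in dcKO_Nex-Cre library 2, against 92.6 to 152.7 CPM elsewhere. All 4 control libraries and dcKO_Nex-Cre libraries 1 and 2 carry lane tag 2 in their file names, whereas dcKO_Nex-Cre libraries 3 and 4 carry lane tag 8, which has no control.

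Of the 7 subplate markers 1 passed the test in the dcKO_Nex-Cre cortex. *Cplx3*, a complexin of the presynaptic release machinery, rose to 3.30 times its control mean, whereas *Tmem163* and *Nr4a2*, at 74.3% and 68.5% of their control means, did not pass the adjusted threshold. The remaining 4, *Hs3st4*, *Nxph4*, *Moxd1* and *Lpar1*, stood at 87.1%, 93.0%, 91.6% and 98.6% of control with overlapping libraries. At an adjusted p under 0.05, 1 of 7 members was higher, against 0.375% of all tested genes, and 0 were lower, against 0.51%. At an unadjusted p under 0.05, 2 of 7 were lower (*Nr4a2* and *Tmem163*), against 7.05% of all genes, and 1 was higher (*Cplx3*), against 6.59%. The libraries of the groups did not overlap for 1 member that was lower (*Tmem163*), against 4.01% of all genes, and for 1 that was higher (*Cplx3*), against 3.99%. DESeq2's Wald test called *Cplx3* higher and *Tmem163* lower, and limma-voom called *Cplx3* alone. The median log2 fold change of the 7 was -0.12, with 6 below 0, and that of all tested genes was 0.004, with 49.1% below 0. Without the 3 libraries with over 100 CPM of the choroid plexus gene *Ttr* (control 1, control 4 and dcKO_Nex-Cre 2), 0 members passed the adjusted threshold, in a fit of 2 control and 3 dcKO_Nex-Cre libraries that called 9 genes in all.

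**Figure D1:**
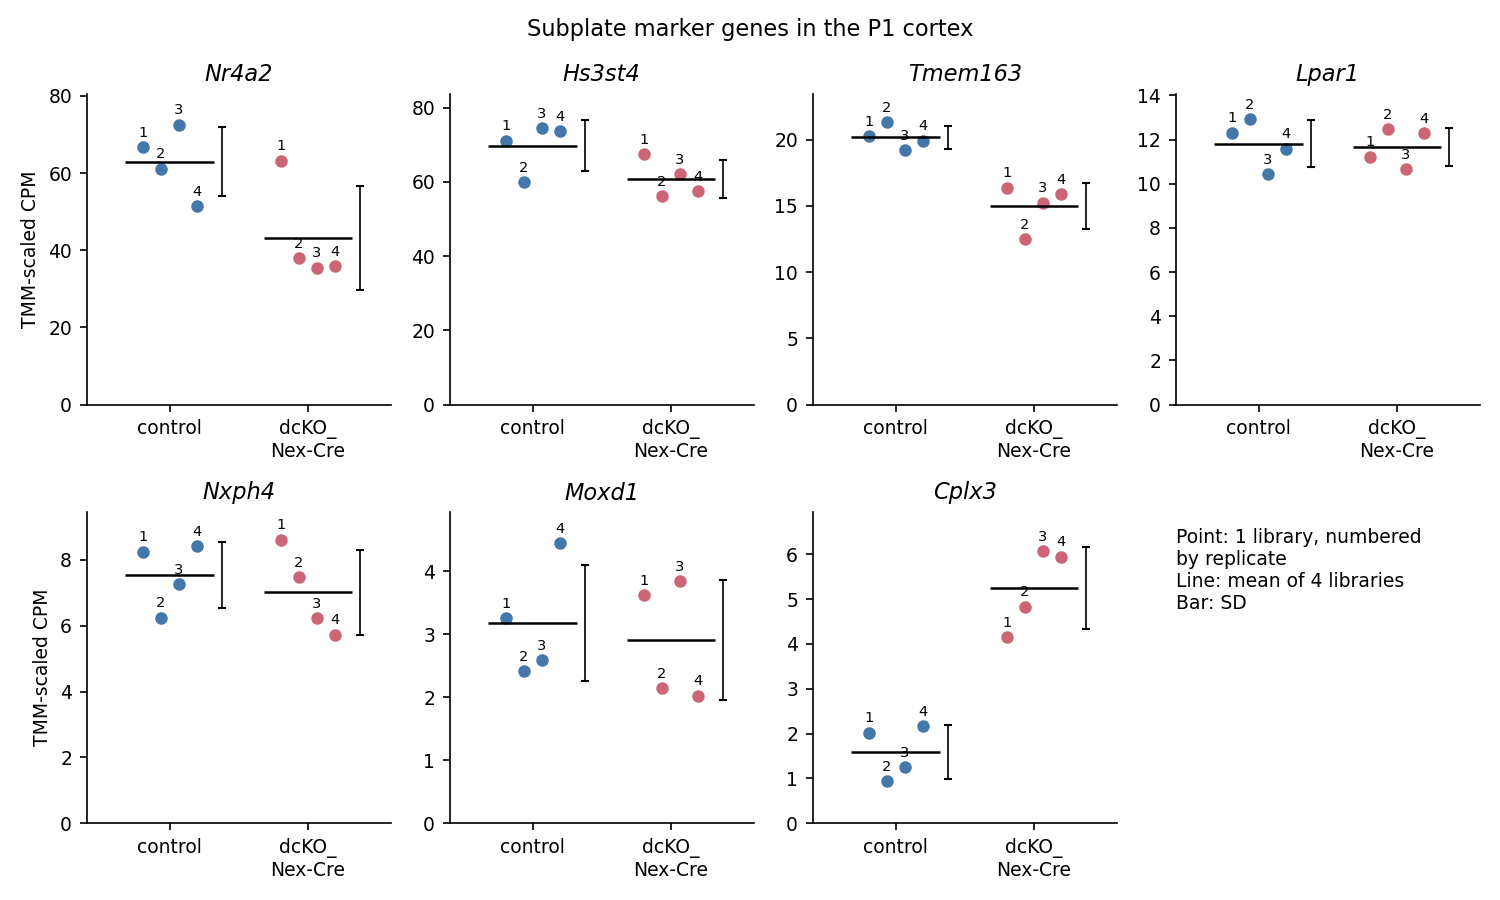
TMM-scaled CPM of the 7 subplate markers in each of the 4 control and 4 dcKO_Nex-Cre libraries, with 1 panel and 1 linear axis from 0 per gene. Points are libraries numbered by replicate, lines are group means and bars are SDs. The *Cplx3* points of the mutant (4.15 to 6.07 CPM) all lie above those of the control (0.931 to 2.16 CPM), and *Nr4a2* of dcKO_Nex-Cre library 1 (63.2 CPM) lies among the controls.

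Among the members that act at vesicles, *Cplx3* (ENSMUSG00000039714, chromosome 9, 57599992 to 57606281, minus strand, GRCm38) encodes complexin 3, which binds the SNARE complex and is best known from ribbon synapses of the retina. Its level was 2.02, 0.931, 1.25 and 2.16 CPM in control libraries 1 to 4, from 44, 17, 30 and 49 counts. In dcKO_Nex-Cre libraries 1 to 4 it was 4.15, 4.83, 6.07 and 5.95 CPM, from 143, 126, 147 and 106 counts. Every mutant library was above every control library, and the lowest mutant value (4.15 CPM) lay well clear of the highest control value (2.16 CPM). The mean went from 1.59 ± 0.593 (SD, n = 4) to 5.25 ± 0.923 CPM (n = 4). This is a log2 fold change of 1.70 ± 0.25 (SE), with an interval from 1.15 to 2.26 and an adjusted p of 0.0162. By the two-sided exact permutation test over the 70 regroupings of the libraries, p was 0.0286, the smallest that 4 against 4 libraries allow. The 95% interval of *Cplx3* lay above those of the other 6 members, whose highest upper bound was 0.47, that of *Moxd1*. Within lane tag 2 alone, with 4 control and 2 mutant libraries, the log2 fold change was 1.49 (adjusted p = 0.0439). The call was lost when control library 1, control library 3 or dcKO_Nex-Cre library 3 was left out (1.84, 1.6 and 1.63, with adjusted p of 0.0507, 0.0593 and 0.069), and without the 3 libraries with *Ttr* over 100 CPM (2.28, adjusted p = 0.0828). Over the 16 alternatives the estimate ranged from 1.49 to 2.28.

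*Tmem163* (ENSMUSG00000026347, chromosome 1, 127486546 to 127679548, minus strand) encodes a vesicular zinc transporter. It was at 20.2, 21.3, 19.2 and 19.9 CPM in control libraries 1 to 4 and at 16.4, 12.5, 15.2 and 15.9 CPM in dcKO_Nex-Cre libraries 1 to 4. Every mutant library was below every control library, and the control libraries were closer to each other (a coefficient of variation of 4.33%) than those of any other member. The mean went from 20.2 ± 0.872 to 15.0 ± 1.74 CPM (SD, n = 4 each). The log2 fold change was -0.43 ± 0.10 (SE), with an interval from -0.65 to -0.20 and an adjusted p of 0.0892, which missed the threshold, while the exact permutation p was 0.0286. DESeq2's Wald test gave -0.43 with an adjusted p of 0.0101, and edgeR without dcKO_Nex-Cre library 4 gave -0.45 with an adjusted p of 0.03. Its exons share 152 bases with *Mgat5* on the other strand. Reads there cannot be assigned by strand, since the libraries do not mark it, and how they were counted is not given. *Mgat5* had means of 72.7 CPM in the control and 79.8 CPM in the dcKO_Nex-Cre cortex.

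*Nr4a2* (ENSMUSG00000026826, chromosome 2, 57106830 to 57124003, minus strand) is the transcription factor among the members, an orphan nuclear receptor also called Nurr1. It was at 66.7, 61.1, 72.5 and 51.5 CPM in control libraries 1 to 4. In dcKO_Nex-Cre libraries 1 to 4 it was at 63.2, 37.9, 35.5 and 35.9 CPM. Libraries 2, 3 and 4 of the mutant were below all controls, whereas library 1, the deepest of the series, was within the control range, so that the groups overlapped. The part of depth in this was not tested. The mean went from 62.9 ± 8.96 to 43.1 ± 13.5 CPM (SD, n = 4 each). The log2 fold change was -0.54 ± 0.18 (SE), with an interval from -0.94 to -0.14, an adjusted p of 0.226 and an exact permutation p of 0.0857. Without dcKO_Nex-Cre library 1 it was -0.79 with an adjusted p of 0.0234, and within lane tag 2, where libraries 1 and 2 are the only mutant ones, it was -0.31 with an adjusted p of 0.397. *Nr4a2* also marks the claustrum, a cell group beside the insular cortex, and 6 of 6 claustrum markers had estimates below 0, with a median of -0.49. None of the 6 passed edgeR's adjusted threshold, and 4 were lower at an unadjusted p under 0.05, against 7.05% of all tested genes. DESeq2's Wald test called 4 lower, against 279 of all 16287 genes, and limma-voom called 0. In that list *Oprk1*, the kappa opioid receptor, was at 1.09 to 2.02 CPM in the control and 0.281 to 0.920 CPM in the mutant (-1.36 ± 0.32, adjusted p = 0.0875), and *Ntng2* at 26.6 to 35.1 and 20.7 to 25.1 CPM (-0.44 ± 0.10, adjusted p = 0.0809). The 6 claustrum markers summed to 1608 to 1805 CPM in the control and 1477 to 1637 CPM in the mutant, of which *Gng2*, a G protein subunit (-0.10 ± 0.08, adjusted p = 0.626), took 1323 to 1549 and 1264 to 1425 CPM. What part cells of the claustrum have in the *Nr4a2* values was not tested.

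The upstream sequence of these 3 members is shown because they had the smallest p-values of the 7, in both directions. Each is the stretch of 250 bases before the gene start in RefSeq (GRCm38.p6), written along the gene's own minus strand, 5′ to 3′. The RefSeq start of *Tmem163* lies inside the gene's span given above from GENCODE, so that its stretch does too. Capitals mark TATAAA on either strand, so that TTTATA is its reverse complement.
*Cplx3*, chr9:57606282-57606531: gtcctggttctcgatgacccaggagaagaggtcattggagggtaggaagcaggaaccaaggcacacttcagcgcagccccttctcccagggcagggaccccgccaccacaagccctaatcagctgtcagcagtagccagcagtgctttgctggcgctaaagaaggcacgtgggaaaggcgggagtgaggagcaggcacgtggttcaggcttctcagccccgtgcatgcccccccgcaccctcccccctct
*Tmem163*, chr1:127678022-127678271: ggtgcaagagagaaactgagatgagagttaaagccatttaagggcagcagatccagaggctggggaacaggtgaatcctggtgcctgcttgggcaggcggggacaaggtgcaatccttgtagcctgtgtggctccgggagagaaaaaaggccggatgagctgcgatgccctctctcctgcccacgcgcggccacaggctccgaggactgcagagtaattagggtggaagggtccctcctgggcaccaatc
*Nr4a2*, chr2:57124004-57124253: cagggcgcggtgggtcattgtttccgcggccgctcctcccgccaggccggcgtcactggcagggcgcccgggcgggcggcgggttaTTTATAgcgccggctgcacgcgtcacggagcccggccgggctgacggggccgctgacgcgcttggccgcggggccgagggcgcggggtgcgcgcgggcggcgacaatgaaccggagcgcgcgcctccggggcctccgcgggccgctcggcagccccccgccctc

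These regions were not assayed in the experiment, and the sequences only describe the genes. In windows from 250 bases before to 50 bases after the start, *Nr4a2* had a GC content of 81.7% with 52 CpG dinucleotides, *Cplx3* 62.7% with 11 and *Tmem163* 61.7% with 15, against medians of 53% and 7 over 32544 windows of all genes. RefSeq windows were found for 6 of the 7 members, 8 windows in all, and *Nxph4* had no entry. AAAGGTCA, the site to which an NR4A receptor binds as a monomer, was searched on both strands and was present in 0 of the 8 windows and in 1.52% of all windows. TATAAA was present in 1 of the 8, that of *Nr4a2*, where the TTTATA begins 164 bases before the start, and in 13.6% of all windows.

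The members that signal at the cell surface had overlapping libraries. *Nxph4* (ENSMUSG00000040258, chromosome 10, 127525473 to 127534559, minus strand) encodes neurexophilin 4, a secreted ligand of α-neurexins. It was at 8.24, 6.24, 7.26 and 8.41 CPM in the control and at 8.61, 7.47, 6.23 and 5.73 CPM in the dcKO_Nex-Cre cortex. The estimate was -0.10 ± 0.16 (log2, SE), with an interval from -0.45 to 0.25 and an adjusted p of 0.809. The largest and the smallest *Nxph4* values of the series were both in the mutant. *Lpar1* (ENSMUSG00000038668, chromosome 4, 58435255 to 58553898, minus strand) encodes a receptor for the lipid lysophosphatidic acid (LPA), coupled to G proteins. It was at 12.3, 12.9, 10.4 and 11.6 CPM in the control and at 11.2, 12.5, 10.7 and 12.3 CPM in the mutant. The ranges were nearly the same, and the log2 fold change was -0.02 ± 0.11 (SE), with an interval from -0.26 to 0.22 and an adjusted p of 0.952. The interval of *Lpar1* leaves room for a moderate difference in either direction. *Lpar1* is also found in cells of the oligodendrocyte lineage, whose 9 markers summed to 233.6 to 316.2 CPM in the control and 308.1 to 383.4 CPM in the mutant. Of these 9, *Cspg4*, the proteoglycan NG2 of precursor cells, rose (0.56 ± 0.10, adjusted p = 0.0355, past the threshold in 7 of 16 alternatives), and the myelin gene *Mag* had an estimate of -0.50 (adjusted p = 0.398). In edgeR 1 of the 9 was called higher, against 0.375% of all tested genes. At an unadjusted p under 0.05, 1 was lower and 4 higher, against 7.05% and 6.59% of all tested genes. The part of these cells in the *Lpar1* level was not tested.

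The members that encode enzymes did not pass the threshold either. *Hs3st4* (ENSMUSG00000078591, chromosome 7, 123982869 to 124398989, plus strand) encodes a 3-O-sulfotransferase, which adds a late sulfate to heparan sulfate chains. It was at 71.2, 59.9, 74.5 and 73.7 CPM in the control and at 67.5, 56.2, 62.2 and 57.5 CPM in the dcKO_Nex-Cre cortex. Control library 2 lay within the mutant range and the other 3 controls above it. The log2 fold change was -0.20 ± 0.09 (SE), with an interval from -0.40 to 0.003, an adjusted p of 0.374 and an exact permutation p of 0.0857. Its exons share 130 bases with the antisense gene *Gm27040*, which had means of 0.541 and 0.548 CPM. *Moxd1* (ENSMUSG00000020000, chromosome 10, 24223517 to 24302790, plus strand) encodes a monooxygenase related to dopamine beta-hydroxylase. It was at 3.25, 2.41, 2.59 and 4.45 CPM in the control and at 3.62, 2.15, 3.84 and 2.02 CPM in the mutant. The libraries of both groups spread widely, with coefficients of variation of 29.1% and 32.9%. Its estimate was -0.12 ± 0.27 (log2, SE), with an interval from -0.70 to 0.47 and an adjusted p of 0.87, which spans from well below to well above the control level.

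Read per library, the 6 members other than *Cplx3* did not sit at the same place in the 4 mutants. In dcKO_Nex-Cre libraries 2, 3 and 4, 5 of the 6 were below their control mean, and in library 1, 3 of the 6 were. In control libraries 1 to 4 the numbers were 0, 4, 4 and 3 of 6. *Cplx3* was set apart with its rise known. The like share of all tested genes was not taken, so these counts have no baseline. *Nxph4* of library 1 was the highest of the 8 libraries. The 7 members summed to 164.8 to 187.7 CPM in the control, to 174.6 CPM in dcKO_Nex-Cre library 1 and to 133.4, 139.6 and 135.2 CPM in libraries 2, 3 and 4. The sum is carried by *Nr4a2* and *Hs3st4*, the members with the most counts.

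Levels of different genes were compared per length, as CPM per kilobase of exon. In the control *Hs3st4* led at 21.9 ± 2.12, followed by *Nr4a2* at 15.5 ± 2.21, *Tmem163* at 4.70 ± 0.203 and *Nxph4* at 4.50 ± 0.60 (SD, n = 4 each). Then came *Lpar1* at 2.75 ± 0.250, *Moxd1* at 0.993 ± 0.289 and *Cplx3* at 0.538 ± 0.201. Only *Tmem163* and *Nxph4* overlapped as neighbours in this order. In the dcKO_Nex-Cre cortex the order was *Hs3st4* (19.1 ± 1.61), *Nr4a2* (10.6 ± 3.31), *Nxph4* (4.19 ± 0.773), *Tmem163* (3.49 ± 0.406), *Lpar1* (2.72 ± 0.202), *Cplx3* (1.78 ± 0.313) and *Moxd1* (0.909 ± 0.299). *Cplx3*, the lowest member per length in the control, was above *Moxd1* in the mutant with no overlap of libraries. There *Nxph4* overlapped *Tmem163*, and *Tmem163* overlapped *Lpar1*.

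A second list of 20 genes known from subplate neurons, none of them among the 7, was read the same way. By edgeR's test 1 of 20 was lower at an adjusted p under 0.05, against 0.51% of all tested genes, and 0 were higher, against 0.375%. At an unadjusted p under 0.05, 2 were lower, against 7.05% of all tested genes, and 2 higher, against 6.59%. The median log2 fold change was -0.07 with 13 below 0, against 49.1% of all tested genes below 0. The gene that fell was *Sv2b*, a synaptic vesicle glycoprotein of excitatory terminals. It was at 88.0, 61.7, 88.6 and 95.8 CPM in the control and at 42.1, 30.3, 42.5 and 32.0 CPM in the mutant. Every mutant library was below every control library, and the log2 fold change was -1.19 ± 0.15 (SE), with an interval from -1.52 to -0.85 and an adjusted p of 0.00828. It passed in 15 of the 16 alternatives and was lost without the 3 libraries with *Ttr* over 100 CPM. *Hcrtr2*, an orexin receptor, was at 3.30 to 4.05 CPM in the control and 4.87 to 6.96 CPM in the mutant (0.70 ± 0.15, adjusted p = 0.0602), and DESeq2's Wald test called it. *Svil*, which encodes the actin-binding protein supervillin, was at 10.6 to 11.5 CPM in the control and 13.3 to 18.2 CPM in the mutant (0.41 ± 0.12, adjusted p = 0.166). *Ccn2*, a secreted matrix protein and a frequently used subplate marker, had means of 14.4 ± 2.51 CPM in the control and 14.5 ± 3.15 CPM in the mutant (0.01 ± 0.17, adjusted p = 0.98). 

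**Figure D2:**
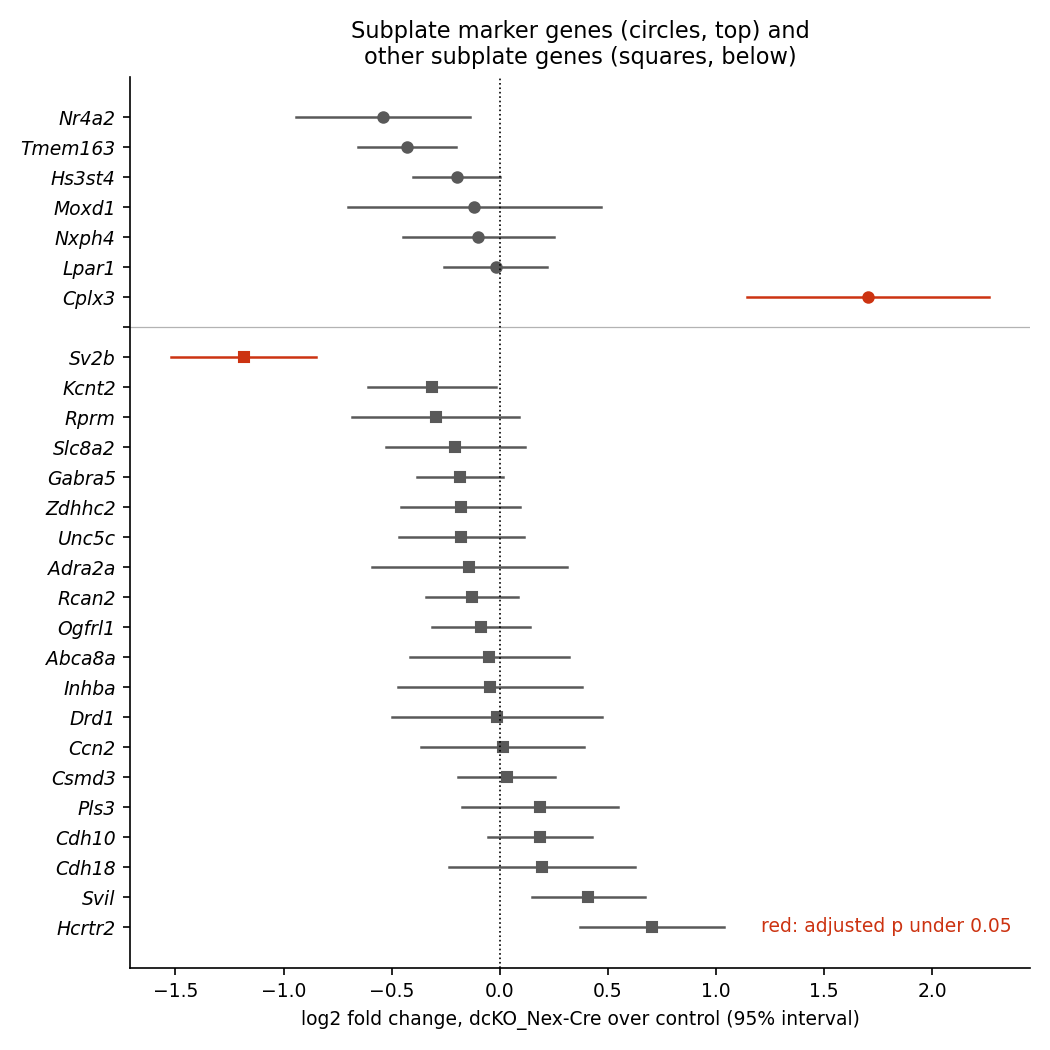
Log2 fold changes of dcKO_Nex-Cre over control with 95% intervals from edgeR, for the 7 subplate markers (circles) and the 20 genes of the second list (squares), ordered by value. Red marks an adjusted p under 0.05, reached by *Cplx3* at 1.70 and by *Sv2b* at -1.19.

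The cortical layers above the subplate gave 0 calls by edgeR. Their lists held 10 layer 6 genes, 8 layer 5 genes and 10 genes of layers 2 to 4, with medians of 0.04, -0.17 and 0.12. At an unadjusted p under 0.05 the counts were 1 lower and 1 higher in layer 6, 4 lower and 1 higher in layer 5, and 0 in layers 2 to 4. The shares over all tested genes were 7.05% lower and 6.59% higher. DESeq2's Wald test called *Fezf2* in layer 6 and *Crym* in layer 5, both lower, and limma-voom called none in these lists. In edgeR *Crym* narrowly missed the threshold (-0.535, adjusted p = 0.0504), and it passed in 5 of 16 alternatives. Libraries did not overlap for 1 lower gene of layer 6, 2 lower genes of layer 5 and 1 higher gene of layers 2 to 4. The shares over all tested genes were 4.01% lower and 3.99% higher. *Tbr1*, the transcription factor of layer 6 and subplate neurons, was at 174.4 to 185.9 CPM in the control and 164.3 to 190.7 CPM in the mutant (-0.01 ± 0.07, adjusted p = 0.944).

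The paralogs of the members were measured in the same libraries. Among the complexins, which clamp and promote vesicle fusion, *Cplx2* was at 479.6 to 588.4 CPM in the control and 451.9 to 525.9 CPM in the mutant (-0.12 ± 0.09, adjusted p = 0.549), and *Cplx1* at 122.3 to 129.1 and 120.3 to 148.0 CPM (0.04 ± 0.08, adjusted p = 0.859). Their 95% intervals, with upper bounds of 0.07 and 0.20, lay below that of *Cplx3*. *Cplx4* had a count in control library 4 alone (0.0441 CPM) and was not tested. Per length, *Cplx3* at 1.78 CPM per kilobase in the mutant remained far under *Cplx1* at 59.3 and *Cplx2* at 99.8.

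Neither relative of *Nr4a2* passed the test. *Nr4a3* had means of 87.0 ± 13.3 CPM in the control and 100.2 ± 28.4 CPM in the mutant, with overlapping libraries (0.21 ± 0.19, adjusted p = 0.645). *Nr4a1* was at 7.97 to 10.3 CPM in the control and 6.44 to 9.93 CPM in the mutant (-0.27 ± 0.15, adjusted p = 0.467). All 3 are also immediate early genes, induced by neuronal activity and stress. Of 11 genes of that class, *Nr4a1* and *Nr4a3* included, edgeR, DESeq2 and limma-voom called 0. At an unadjusted p under 0.05, 2 were higher, against 6.59% of all tested genes, and the median was -0.06.

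Of the neurexophilins, *Nxph3*, which is found in deep cortical layers, was at 41.8, 38.6, 46.4 and 45.2 CPM in the control and at 62.6, 58.0, 49.5 and 64.7 CPM in the dcKO_Nex-Cre cortex. Every mutant library was above every control, but the log2 fold change of 0.45 ± 0.10 (SE) had an adjusted p of 0.0645, and DESeq2's Wald test called it. *Nxph1* was at 60.7 to 73.0 and 54.3 to 89.0 CPM (0.07 ± 0.13, adjusted p = 0.836). *Nxph2* was at 18.9 to 28.0 and 15.9 to 30.5 CPM (-0.12 ± 0.20, adjusted p = 0.83). Of their partners, *Nrxn2* had an estimate of -0.12 ± 0.12 (adjusted p = 0.671) and *Nrxn3* of 0.13 ± 0.10 (adjusted p = 0.553), with overlapping libraries.

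The LPA receptors resembled *Lpar1* in having overlapping libraries. *Lpar2* had an estimate of -0.10 ± 0.14 (adjusted p = 0.786) and *Lpar4* of -0.04 ± 0.14 (0.925). *Lpar6*, which shares 408 exon bases with *Rb1* on the other strand, had -0.03 ± 0.16 (adjusted p = 0.943), and *Lpar3* had 0.36 ± 0.32 (adjusted p = 0.636). *Lpar5* was under the filter at 0.112 to 0.493 CPM. Of 9 genes that make, degrade or bind LPA and related lipids, edgeR, DESeq2 and limma-voom called 0. In that list 1 was lower at an unadjusted p under 0.05, against 7.05% of all tested genes. It was *Plppr4* (79.5 to 121.7 CPM in the control, 62.6 to 84.3 CPM in the mutant, -0.42 ± 0.14, adjusted p = 0.216), a membrane protein of excitatory synapses. *Plpp3*, a lipid phosphate phosphatase, had an estimate of 0.28 ± 0.18 (adjusted p = 0.528).

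In the family of *Hs3st4*, edgeR and limma-voom called 0 of the 5 tested heparan sulfate 3-O-sulfotransferases. DESeq2's Wald test called *Hs3st2* and *Hs3st5*, both lower, against 279 lower calls among all 16287 genes. Of the 5 estimates 4 were below 0, against 49.1% of all tested genes. At an unadjusted p under 0.05, 2 were lower and 0 higher, against 7.05% and 6.59%. Libraries did not overlap for 2 of the 5, both lower, against 4.01% of all tested genes. *Hs3st2* was at 19.3, 11.9, 16.3 and 22.1 CPM in the control and at 11.7, 9.50, 8.34 and 6.46 CPM in the mutant. The groups did not overlap, although control library 2 and dcKO_Nex-Cre library 1 nearly met, and the log2 fold change was -0.94 ± 0.21 (SE, adjusted p = 0.0668). *Hs3st5* was at 10.2 to 12.3 CPM in the control and 6.36 to 8.59 CPM in the mutant, also with no overlap (-0.53 ± 0.13, adjusted p = 0.0875). *Hs3st1* had an estimate of 0.08 ± 0.13 (adjusted p = 0.812) and *Hs3st3b1* of -0.47 ± 0.28 (adjusted p = 0.485). *Hs3st3a1* and *Hs3st6* were under the filter, at most at 0.348 and 0.422 CPM. Of 13 other genes that build or trim heparan sulfate, edgeR and limma-voom called 0, and DESeq2's Wald test called *Ndst4*, an N-deacetylase and N-sulfotransferase, lower (5.42 to 7.01 CPM in the control, 3.37 to 5.04 CPM in the mutant, -0.57 ± 0.16 and an adjusted p of 0.143 in edgeR). *Sulf1*, which removes sulfate outside the cell, was at 13.1 to 34.3 CPM in the control and 3.76 to 13.8 CPM in the mutant, with overlapping libraries (-1.5 ± 0.41, adjusted p = 0.154). At an unadjusted p under 0.05, 2 of the 13 were lower and 1 higher, against 7.05% and 6.59% of all tested genes.

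**Figure D3:**
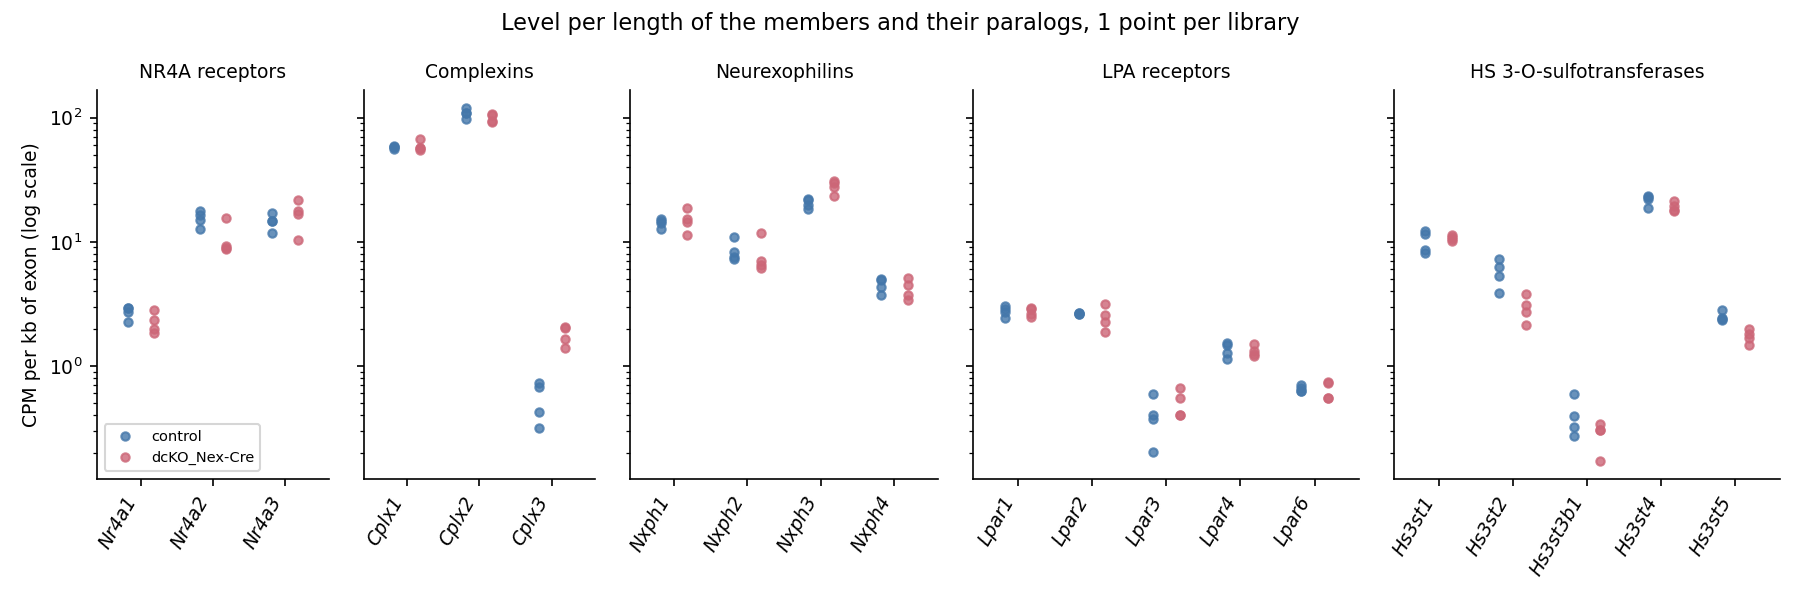
CPM per kilobase of exon, on a log axis, of 5 members and their tested paralogs, by family, in the 4 control (blue) and 4 dcKO_Nex-Cre (red) libraries, 1 point per library. *Cplx3* (means 0.538 and 1.78) lies far under *Cplx1* and *Cplx2* in both groups, and of the genes plotted the groups do not overlap for *Cplx3*, *Nxph3*, *Hs3st2* and *Hs3st5*.

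The zinc transporters beside *Tmem163* were near their control level with 1 exception. Of 8 genes of the *Slc30* family, most of which move zinc out of the cytosol, edgeR and limma-voom called 0. DESeq2's Wald test called *Slc30a3* lower, and 1 was lower at an unadjusted p under 0.05, against 7.05% of all tested genes. *Slc30a3*, the transporter that loads zinc into synaptic vesicles, was at 2.93, 1.59, 1.21 and 3.04 CPM in the control and at 0.986, 0.728, 0.867 and 0.674 CPM in the mutant. The groups did not overlap, and the log2 fold change was -1.41 ± 0.32 (SE, adjusted p = 0.0755). Counts were only 12 to 69 per library. Over the 16 alternatives the estimate ranged from -1.61 to -0.70 and passed the threshold in 3. Its highest values were in control libraries 1 and 4, the controls with the most RNA of choroid plexus markers, and the part of this was not tested. The other 7 had estimates from -0.06 to 0.09, the latter that of *Slc30a5* (adjusted p = 0.634), which supplies zinc to the secretory pathway.

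*Pam*, the relative of *Moxd1* that amidates neuropeptides, was at 117.8 to 144.0 CPM in the control and 146.2 to 162.5 CPM in the mutant, with no overlap (0.19 ± 0.08, adjusted p = 0.329). It shares 188 exon bases with *B230216N24Rik* on its own strand. *Dbh* was under the filter, at most at 0.250 CPM.

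Of 12043 tested genes with at least 100 counts on average, the 3 whose centred log2 CPM ran closest to that of *Cplx3* over the 8 libraries were *Cbln2*, *Rspo2* and *Tekt1*, with root mean square differences of 0.31, 0.32 and 0.39 on the log2 scale. *Cbln2*, a synaptic organizer that binds neurexins, was at 19.7 to 30.8 CPM in the control and 37.7 to 72.5 CPM in the mutant and rose by 1.27 (adjusted p = 0.0173). *Rspo2*, a secreted amplifier of WNT signaling, was at 18.6 to 23.2 and 39.9 to 61.9 CPM and rose by 1.35 (adjusted p = 0.00202). *Tekt1*, a structural protein of cilia, was at 5.77 to 6.73 and 11.7 to 13.6 CPM and rose by 1.04 (adjusted p = 0.00239). Their calls held in 11, 16 and 15 of 16 alternatives, respectively. The likeness is set mainly by the difference between the groups, which all 4 genes share.

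The neighbours of *Cplx3* on chromosome 9 did not pass the test. *Lman1l*, 804 bases away on the same strand, had means of 0.267 CPM in the control and 0.118 CPM in the mutant and was not tested. *Ulk3*, 3759 bases away, had an estimate of -0.15 (adjusted p = 0.569), *Scamp2* 0.18 (adjusted p = 0.415), *Csk* 0.08 (adjusted p = 0.67) and *Mpi* -0.12 (adjusted p = 0.544).

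Markers of other cells were read beside the members. Of 8 interneuron markers, 9 of radial glia and astrocytes, 5 of Cajal-Retzius cells, 4 tested of thalamus, 4 tested of choroid plexus and 10 of meninges and vessels, edgeR and limma-voom called 0. In the same order, 1, 1, 0, 0, 0 and 1 were lower and 0, 1, 0, 0, 0 and 0 higher at an unadjusted p under 0.05. Of all tested genes, 7.05% were lower and 6.59% higher at that threshold. DESeq2's Wald test called *Sst*, *Fabp7* and *Rgs5* lower. *Ppp1r1b*, a striatal marker that is also found in deep cortical neurons, rose (0.96 ± 0.18, adjusted p = 0.04), and so did *C1qb*, a complement gene of microglia (0.46 ± 0.09, adjusted p = 0.0422), each as the sole edgeR call among 8 and 7 markers. Each passed in 6 of the 16 alternatives. Of all tested genes, 0.375% were higher at an adjusted p under 0.05 in edgeR. At an unadjusted p under 0.05, 1 striatal marker was higher and 0 lower, and 3 microglial markers were higher and 1 lower. Over all 16287 tested genes, DESeq2's Wald test called 279 lower and 215 higher. DESeq2's Wald test called *Ppp1r1b* alone of the striatal markers and, of those of microglia, *C1qb* and *C1qc* higher and *P2ry12* lower, and limma-voom called no striatal marker and *C1qb* alone of the microglial ones. Of 9 markers of cortical projection neurons edgeR, DESeq2's Wald test and limma-voom called *Neurod6* alone, as lower. In edgeR 0.51% of all tested genes were called lower. Of the 9 estimates 6 were below 0, against 49.1% of all tested genes. At an unadjusted p under 0.05, 2 of the 9 were lower and 1 higher, against 7.05% and 6.59% of all tested genes. The 9 summed to 1735 to 2020 CPM in the control and 1495 to 1695 CPM in the mutant. Of this sum *Neurod6*, whose locus carries the Nex-Cre allele, took 569.9 to 750.3 CPM in the control and 327.0 to 437.2 CPM in the mutant. It was the only 1 of the 9 that was lower with no overlap of libraries, against 4.01% of all tested genes. *Neurod1* was the only 1 that was higher with no overlap, against 3.99%. Control libraries 1 and 4, with the most RNA of choroid plexus markers, had the higher *Cplx3* levels of the control (2.02 and 2.16 CPM, against 0.931 and 1.25 CPM). The mutant libraries 1, 3 and 4, with 4.10 to 15.4 CPM of these markers, had 4.15 to 6.07 CPM of *Cplx3*, and library 2, with 557.4 CPM of them, had 4.83 CPM.

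**Figure D4:**
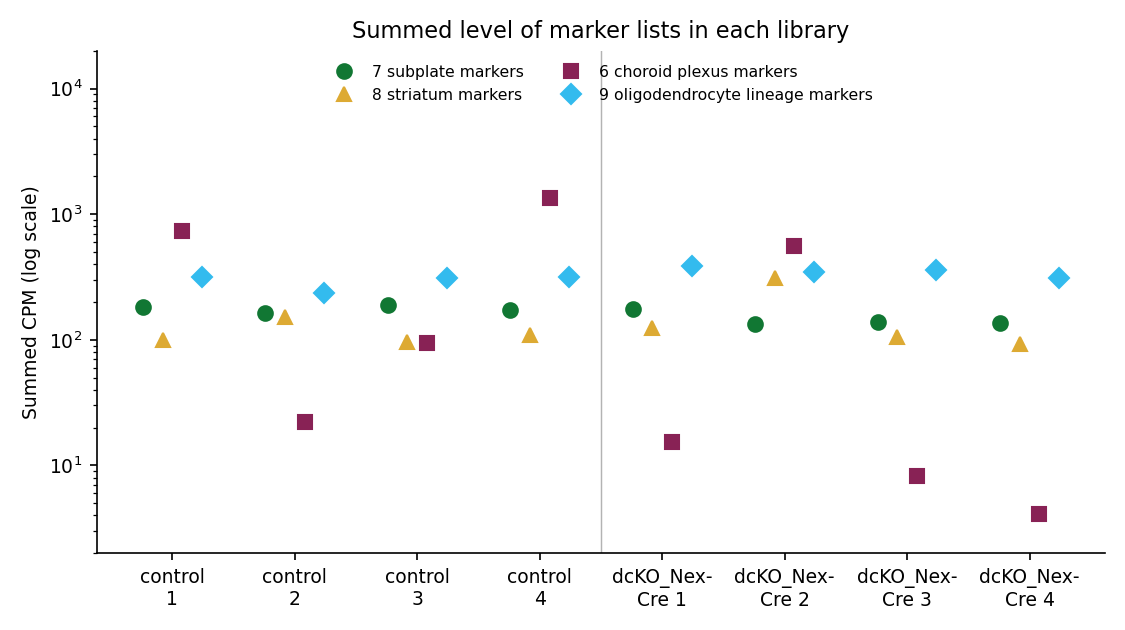
Summed CPM, on a log axis, of the 7 subplate markers and of the lists for striatum (8 genes), choroid plexus (6) and oligodendrocyte lineage (9) in each library, with control libraries left of the line. Choroid plexus markers range from 4.10 to 1336 CPM, whereas the subplate markers stay between 133.4 and 187.7 CPM.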

How the data were processed

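The P1 cortex was sampled in 4 control and 4 dcKO_Nex-Cre samples, total RNA was isolated with TRIZOL, and libraries were made with an Illumina TruSeq kit (v2) that does not mark strand. The authors deposited a table of raw, unnormalized read counts by Ensembl gene for every library. The submitters' processing notes name the build mm10, and the aligner, the counting program and its use of strand are not given in the sources used here. Of 48709 identifiers, 48349 matched GENCODE M21 (GRCm38), which gave symbols, positions and exon lengths. Promoter sequences were from RefSeq.

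The groups were compared by edgeR 4.0.16 in R 4.3.3 (filterByExpr, TMM, robust dispersions, quasi-likelihood F test, two-sided, no covariates), with Benjamini-Hochberg adjustment over 16287 genes and a threshold of 0.05. For single genes, CPM values also entered an exact permutation test, two-sided, over 70 regroupings. The method was tested on simulated data. No 2 libraries of a group were copies, since their chi-square per degree of freedom was at least 3.77. Total counts of 17958641 to 35191912 gave *Cplx3* 17 to 147 and *Moxd1* 36 to 125 counts per library, on average the fewest of the members.

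The alternatives were DESeq2 size factors, DESeq2 1.42.0 (Wald test), limma-voom (limma 3.58.1), no filter, at least 10 counts in every library, the replicate number as a block, lane tag 2 only, each library left out, and, added after seeing the data, 3 libraries with *Ttr* over 100 CPM left out. The closing section gives their effect.

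The members and all gene lists were chosen with earlier results of these data known. Named genes are the members, the deleted genes and *Neurod6*, all paralogs, list genes with an adjusted p under 0.05 (otherwise the 2 with the smallest p, left out for lists given by counts alone) and the 3 genes nearest to *Cplx3*. The neighbours of *Cplx3*, *Hcrtr2*, *Svil*, *Tbr1*, *Ccn2*, *Mag*, *Gng2*, *C1qc*, *P2ry12*, *Nrxn2*, *Nrxn3* and genes called by DESeq2 alone were named outside this rule after their values were seen. Withheld items are not reported. Figures were drawn with matplotlib 3.10.9 in Python 3.11.15.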

Additional observations from a re-analysis of the deposited data

Results flagged for a closer look

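In 5 of the 88 groups of 4 libraries checked (44 genes, the members, their paralogs and other named list genes, in 2 groups), 1 library lay far from the other 3 by Dixon's test, and chance flags about 1 in 20 groups, or 4.4 here. *Nr4a2* was at 63.2 CPM in dcKO_Nex-Cre library 1, against 35.5 to 37.9 CPM in the other mutant libraries. *Svil* was at 18.2 CPM in dcKO_Nex-Cre library 2, against 13.3 to 13.8 CPM in the others. *Nxph2* was at 30.5 CPM in dcKO_Nex-Cre library 4, against 15.9 to 18.2 CPM. *Plpp3*, a lipid phosphate phosphatase, was at 73.8 CPM in control library 2, against 112.2 to 115.9 CPM in the other controls. *Ppp1r1b* was at 88.3 CPM in dcKO_Nex-Cre library 2, the library with the highest sum of striatal markers, against 46.1 to 52.1 CPM in the other mutant libraries. The cause was not tested for any of the 5.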

How the results depend on the processing

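Of the 7 members, 1 passed the adjusted threshold, and 2 did with DESeq2's Wald test (*Cplx3* and *Tmem163*). Leaving out 1 library gave 0 to 2, with 0 without control 1, control 3 or dcKO_Nex-Cre 3, and 2 without dcKO_Nex-Cre 1 (with *Nr4a2*) or dcKO_Nex-Cre 4 (with *Tmem163*). Without the 3 libraries with *Ttr* over 100 CPM, 0 passed. In the list of 20 other subplate genes 1 passed, against 2 with DESeq2's Wald test and 2 with no filter (*Sv2b* and *Hcrtr2*), 1 to 3 with 1 library left out (3 without dcKO_Nex-Cre 4) and 0 without the 3 libraries. The fit with fewer libraries has fewer residual degrees of freedom, and the cause of the other changes was not tested.

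The log2 fold change of *Cplx3* ranged from 1.54 to 1.89 with 1 library left out (adjusted p 0.00826 to 0.069, past the threshold in 5 of 8 fits) and was 2.28 (adjusted p = 0.0828) without the 3 libraries. That of *Tmem163* was -0.43 (adjusted p = 0.0101) by DESeq2 and ranged from -0.47 to -0.35 with 1 library left out, and that of *Nr4a2* ranged from -0.79 to -0.46. *Hs3st4* kept its direction and stayed on its side of the threshold in 16 of 16 alternatives (-0.26 to -0.11). Estimates near 0 reversed without becoming significant. *Nxph4* was 0.095 with lane tag 2 only and 0.027 without the 3 libraries. *Lpar1* was 0.005 with lane tag 2 only and ranged from -0.074 to 0.034 with 1 library left out (0.008 without control 1, 0.034 without control 2 and 0.022 without dcKO_Nex-Cre 3). *Moxd1* ranged from -0.271 to 0.091 (0.091 without control 4, 0.012 without dcKO_Nex-Cre 2 and 0.016 without dcKO_Nex-Cre 4) and was 0.35 without the 3 libraries.

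Over all genes, 83 lower and 61 higher calls became 279 and 215 with DESeq2's Wald test, 150 and 109 with no filter, 108 and 140 with lane tag 2 only, 33 and 21 with the replicate block, 619 and 659 without dcKO_Nex-Cre 4, 9 to 54 lower and 9 to 33 higher without any other single library, and 1 and 8 without the 3 libraries. No sign was found that the replicate numbers pair the samples. The deviations of same-numbered libraries correlated at 0.126, 0.0179, 0.135 and -0.138, and no library correlated best with its own number. Such correlations cannot exclude a pairing that is weak beside other differences between libraries. With the replicate block *Cplx3* was at 1.75 (adjusted p = 0.0398), and no call of a member changed.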
